A study of Homo sapiens with 6 samples.

Results

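Transforming growth factor-beta (TGF-beta) and activin genes were followed in the human medulloblastoma line Daoy, an established cell line, during stress of the endoplasmic reticulum. The 10 genes were the ligands TGFB1, TGFB2 and TGFB3, the receptors TGFBR1, TGFBR2 and TGFBR3, the latent TGF-beta binding proteins LTBP1 and LTBP2, the activin A subunit INHBA and its antagonist follistatin, FST. They were chosen by name, and every probe set that the platform annotation assigned to one of these symbols alone was taken, which gave 26 of the 54675 probe sets on the array and 10 of the 19775 genes with a probe set of their own. Cells received no treatment (untreated), or thapsigargin (Tg) at 1 µM for 3 h or 8 h, with 2 arrays for each of the 3 groups, labelled replicate 1 and replicate 2. Thapsigargin blocks the calcium pump of the endoplasmic reticulum and thereby sets off the unfolded protein response. All 3 groups were of the same unmodified line in medium with serum, and the sources used here do not say whether the untreated cells received the solvent or when they were harvested. The values were linear MAS5 signals, scaled by the authors to one trimmed mean on every array, and changes are given as log2 fold changes of the group means of log2 signal.

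TGF-beta is secreted in a latent form, held by its own propeptide and tethered to the extracellular matrix by latent TGF-beta binding proteins. Once released by integrins or proteases, it is bound by the type II receptor TGFBR2, which activates the type I receptor TGFBR1, and the kinase of TGFBR1 then phosphorylates SMAD2 and SMAD3. TGFBR3, also called betaglycan, is a co-receptor that presents TGF-beta2 in particular. Activin A, a dimer of the INHBA product, uses other receptors but the same SMADs, and follistatin binds activin and keeps it from them. In tumours of the nervous system these ligands are known for effects on growth, invasion and vessel formation.

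INHBA, TGFBR2, TGFB2 and TGFB3 had a change that passed in the blocked fit described below. None of them passed in the fit without the block. The windows around their start sites are shown with the short motifs found in them, as sequence near the start of the called genes. A link between these motifs and the changes was not tested. The windows are RefSeq sequence of GRCh38.p14, 250 bases before to 50 after each gene's start, 5′ to 3′ on the gene's own strand, with the matched motif in capitals.
INHBA, chr7:41703041-41703340, minus strand: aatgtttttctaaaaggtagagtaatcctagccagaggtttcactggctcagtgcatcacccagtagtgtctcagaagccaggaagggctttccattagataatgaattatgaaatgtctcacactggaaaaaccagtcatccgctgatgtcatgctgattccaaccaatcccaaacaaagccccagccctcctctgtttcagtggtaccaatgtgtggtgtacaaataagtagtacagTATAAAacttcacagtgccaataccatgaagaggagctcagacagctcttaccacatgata
TGFBR2, chr3:30606351-30606650, plus strand: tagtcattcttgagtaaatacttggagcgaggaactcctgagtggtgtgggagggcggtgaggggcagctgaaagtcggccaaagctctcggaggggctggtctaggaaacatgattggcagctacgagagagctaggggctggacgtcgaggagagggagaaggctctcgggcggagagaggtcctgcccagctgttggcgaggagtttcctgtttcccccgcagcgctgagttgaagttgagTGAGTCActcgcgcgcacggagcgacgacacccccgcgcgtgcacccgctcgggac
TGFB2, chr1:218345086-218345385, plus strand: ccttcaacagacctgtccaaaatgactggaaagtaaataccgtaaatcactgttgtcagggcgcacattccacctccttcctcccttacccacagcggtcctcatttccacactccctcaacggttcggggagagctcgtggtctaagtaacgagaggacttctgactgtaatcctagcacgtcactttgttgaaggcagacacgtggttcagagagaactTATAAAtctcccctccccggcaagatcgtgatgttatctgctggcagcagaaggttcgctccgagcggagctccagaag
TGFB3, chr14:75981946-75982245, minus strand: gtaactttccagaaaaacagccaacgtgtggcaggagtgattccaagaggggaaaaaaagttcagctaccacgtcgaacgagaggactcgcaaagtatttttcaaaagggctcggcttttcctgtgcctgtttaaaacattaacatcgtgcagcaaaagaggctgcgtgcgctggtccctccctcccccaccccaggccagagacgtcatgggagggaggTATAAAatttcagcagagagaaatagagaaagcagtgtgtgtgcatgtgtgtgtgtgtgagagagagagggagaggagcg
The capitals mark a TATA motif (TATAAA) in INHBA at -11, in TGFB2 at -29 and in TGFB3 at -30, and an AP-1 motif (TGACTCA, present as its reverse complement) in TGFBR2 at -6, each position being that of the motif's first base counted from the gene's start. TGFB3 and TGFBR2 each have another annotated start, with windows at chr14:75982962-75983261 and chr3:30606106-30606405 in which none of the motifs searched was found, and only the window with a match is printed.

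Motifs were searched on both strands of all 35116 windows given, of which 21 belonged to the 10 genes. TATAAA was present in 11.5% of all windows and in 3 of the 21, and the AP-1 motif in 4.95% of all and in 1 of the 21. Neither count is read as a feature of these genes. The cyclic AMP response element TGACGTCA, present in 1.85% of all windows, was matched in 1 of the 21, that of LTBP1 at -94 (chr2:32946703-32947002). Of the motifs tied to the unfolded protein response, the UPR element TGACGTGG (0.729% of all windows), the C/EBP-ATF response element TTGCATCA (0.866%) and the ER stress response element (CCAAT, 9 bases of any kind, CCACG; 0.0769%) were matched in 0 of the 21 windows. A match is a description of the letters in these windows and no evidence of binding.

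On these arrays the replicate 1 and replicate 2 sets differed in ways that the groups did not explain, and the values that bear on the genes are given here once. Median signals were 84.8 to 103 among replicate 1 arrays and 69.7 to 75.3 among replicate 2 arrays, and hybridization controls, which are spiked in and not of the cells, had geometric means of 6547 to 9683.6 in the first set and 2230.1 to 2401.4 in the other. Each number held all 3 groups, so differences were tested in the limma fit without the replicate number and in a fit that adds this number as a block (the blocked fit), with p-values adjusted by Benjamini-Hochberg over the 27616 probe sets that reached a signal of 100 on 2 or more arrays. Calls of the blocked fit are given with the p of both fits, while for differences that passed neither often only the blocked p, the lower of the pair in all 19 tested probe sets of the 10 genes, is printed. An SE is that of the fit without the block unless it is named as blocked. The words rose and fell are used only of what passed 0.05 in a named fit. The stress marker HSPA5 had signals of 41566.7 to 73709.4 in Tg 3 h cells and 44209.5 to 75398.1 in Tg 8 h cells, against 16614.5 and 18933.2 in untreated cells. Another, DDIT3, had 15024.5 to 19271.4 at 3 h and 15123.0 to 20008.8 at 8 h, against 405.4 (replicate 1) and 1654.4 (replicate 2) in untreated cells, so that the untreated arrays stood apart from each other in this gene. Of 11 measured neural and medulloblastoma markers, 9 were at 100 or more on every array, while ATOH1 was under 100 on all. Of 4 measured immune markers 0 reached 100 on every array, with a summed signal of 112.5 to 228.5 at 3 h and 103.6 to 255.3 at 8 h, against 162.7 and 163.5 in untreated cells. Of 6 endothelial markers 1 reached 100 on every array, with VWF and CLDN5 under 100 on all. Of 6 fibroblast markers 4 did, with PDGFRA under 100 on all and summed signals of 2228.7 to 2458.4 at 3 h and 2391.9 to 2884.4 at 8 h, against 2741.2 and 2800.2 in untreated cells.

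Of the 26 probe sets, 19 were bright enough to be tested, and each of the 10 genes had at least 1 among them. In the fit without the block, 0 of the 19 passed at 3 h, at 8 h or between the times, where over all tested probe sets 0.0543%, 0.659% and 0% passed. Its unadjusted p was below 0.05 in 4, 3 and 6 of the 19, against 1126, 2754 and 1804 of all 27616. These unadjusted counts are not read as a result about the genes. In the blocked fit 3 of 19 passed at 3 h against a background of 0.992%, 2 of 19 at 8 h against a background of 6.59%, and 3 of 19 between 8 h and 3 h against a background of 2.46%. The 8 h count is a share near its background and says nothing particular of these genes. The study's methods name a local pooled error test, and a version of it was written anew here, with Benjamini-Hochberg adjustment at 0.05. Its calls need not be those of the study. With this local pooled error test 2 of 19 passed at 3 h (background 0.185%), 0 at 8 h (background 0.967%) and 2 between the times (background 0.199%). Counted as genes, by the brightest probe set of each, 0 of 10 passed without the block (0.0701% of all genes at 3 h and 0.857% at 8 h), 2 of 10 passed in the blocked fit at 3 h (1.25% of all) and 2 at 8 h (8.54% of all), and the local pooled error test called 1 at 3 h and 0 at 8 h (0.296% and 1.26% of all). The genes called at 3 h were INHBA and TGFBR2, both higher, and those called at 8 h were TGFB2 and TGFB3, both lower. The median log2 fold change of the 19 probe sets was 0.327 at 3 h, against -0.0175 over all tested probe sets, and 0.042 at 8 h, against -0.0892. INHBA and FST each gave 3 of the 19, all with a positive 3 h value, so this is no median of genes. On the brightest probe sets the 3 h values were -0.07 (TGFB1), -0.15 (TGFB2), -0.83 (TGFB3), -0.03 (TGFBR1), 0.88 (TGFBR2), 0.33 (TGFBR3), 0.00 (LTBP1), -0.19 (LTBP2), 1.62 (INHBA) and 0.34 (FST). The 10 genes thus shared no direction.

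**Figure D1:**
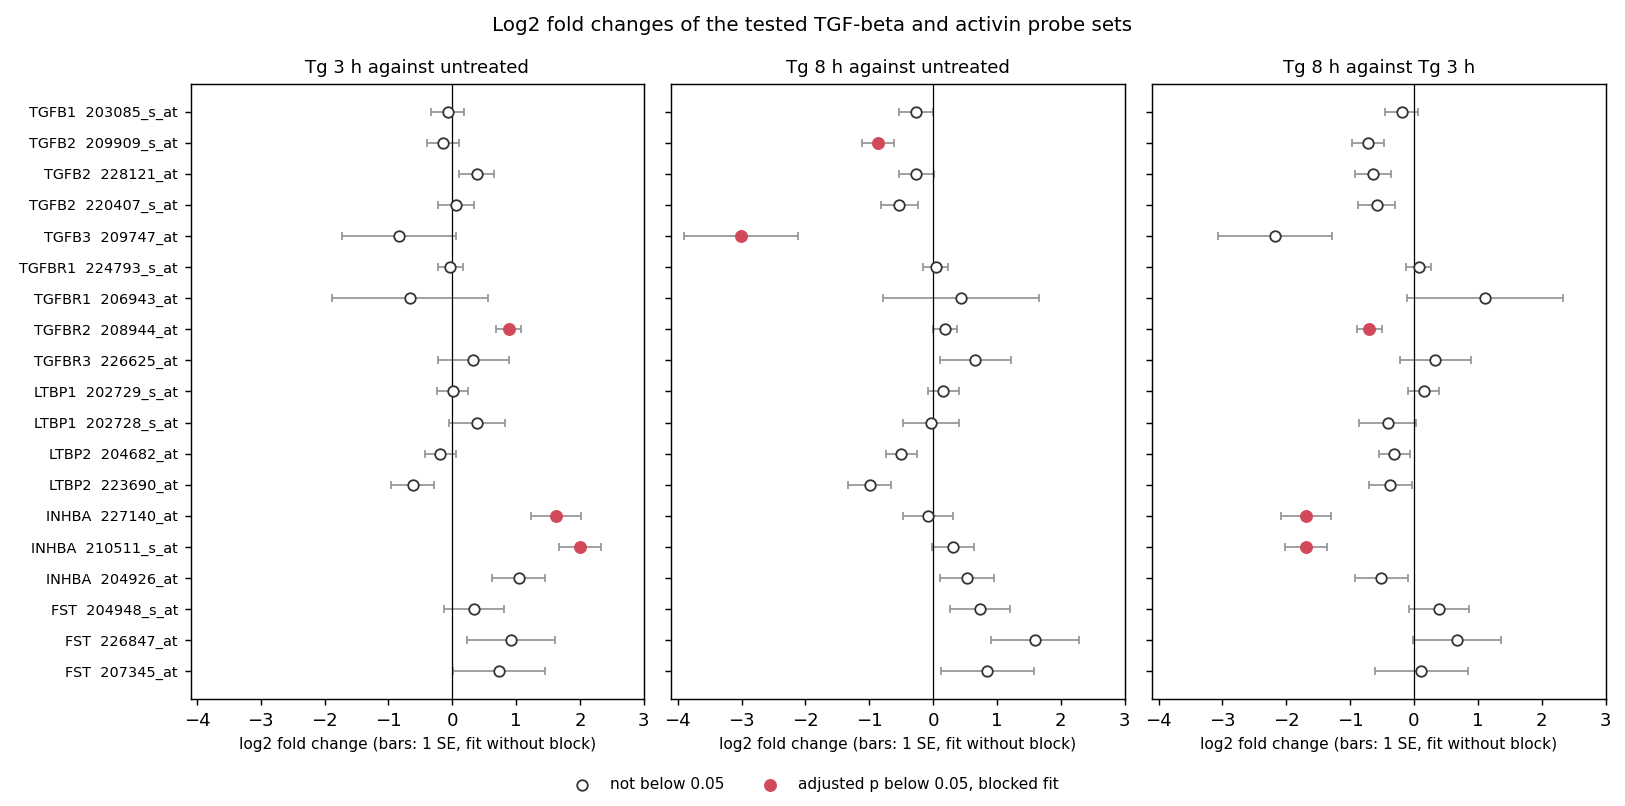
Log2 fold changes of the 19 tested probe sets of the 10 genes in the 3 comparisons (x axis, log2 scale, bars 1 SE of the fit without the block), with red points for an adjusted p below 0.05 in the blocked fit. INHBA and TGFBR2 lie to the right at 3 h and to the left between 8 h and 3 h, while TGFB2 and TGFB3 lie to the left at 8 h.

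INHBA, the gene of the beta A subunit of activin A, had its highest signals at 3 h and signals near those of untreated cells at 8 h. Its probe set 227140_at had 6483.5 and 4258.0 in untreated cells, 22000.2 and 11880.7 at 3 h, and 6663.9 and 3726.9 at 8 h (replicate 1 first in each pair, here and below). Both Tg 3 h arrays lay above all 4 other arrays. The 3 h change was 3.08-fold, a log2 fold change of 1.62 (SE 0.39, blocked SE 0.12, n = 2 arrays per group), with an adjusted p of 0.499 in the limma fit without the block and 0.000205 in the blocked fit. The local pooled error test gave an adjusted p of 0.0215 for it.

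A second INHBA probe set, 210511_s_at, also had its highest signals at 3 h. It had 3685.5 and 2275.8 in untreated cells, 14560.1 and 9265.1 at 3 h, and 4273.8 and 2998.3 at 8 h. INHBA rose by a log2 fold change of 2.00 (blocked SE 0.12, SE 0.33 without the block, 4.01-fold) at 3 h in the blocked fit, with an adjusted p of 6.4e-05, against 0.160 without the block. Its adjusted p was 0.000514 in the local pooled error test. Among 20187 probe sets with a group mean signal of at least 200, 79 had a larger log2 fold change at 3 h than this one, and 153 a larger one than 227140_at. Taken within each replicate number, the 3 h differences were 1.76 and 1.48 for 227140_at and 1.98 and 2.03 for 210511_s_at, on the log2 scale. The 3' to 5' ratio of ACTB signals, a measure of RNA integrity, was 4.47 on the replicate 1 array of Tg 3 h cells, the highest of the 6, against 2.97 on the untreated replicate 1 array. Within replicate 2 it was 2.75 at 3 h against 2.86 in untreated cells. The part of RNA integrity in the INHBA difference was not tested.

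Between the times INHBA fell in the blocked fit. The log2 fold change of Tg 8 h against Tg 3 h was -1.70 for both probe sets, with an adjusted p of 0.000663 for each in the blocked fit, and 0.396 (227140_at) and 0.307 (210511_s_at) without the block. The local pooled error test gave 0.00224 and 0.00119. Against untreated cells the 8 h log2 fold changes were -0.08 (SE 0.39) for 227140_at and 0.31 (SE 0.33) for 210511_s_at, with adjusted p of 0.782 and 0.175 in the blocked fit, and the arrays of the 2 groups overlapped. The dimmest INHBA probe set, 204926_at, had 270.0 and 271.9 in untreated cells, 862.3 and 360.3 at 3 h, and 461.5 and 331.3 at 8 h. Its 3 h log2 fold change of 1.04 (SE 0.42) had an adjusted p of 0.211 in the blocked fit and rested mostly on 1 array, since it was 0.41 without Tg 3 h replicate 1.

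**Figure D2:**
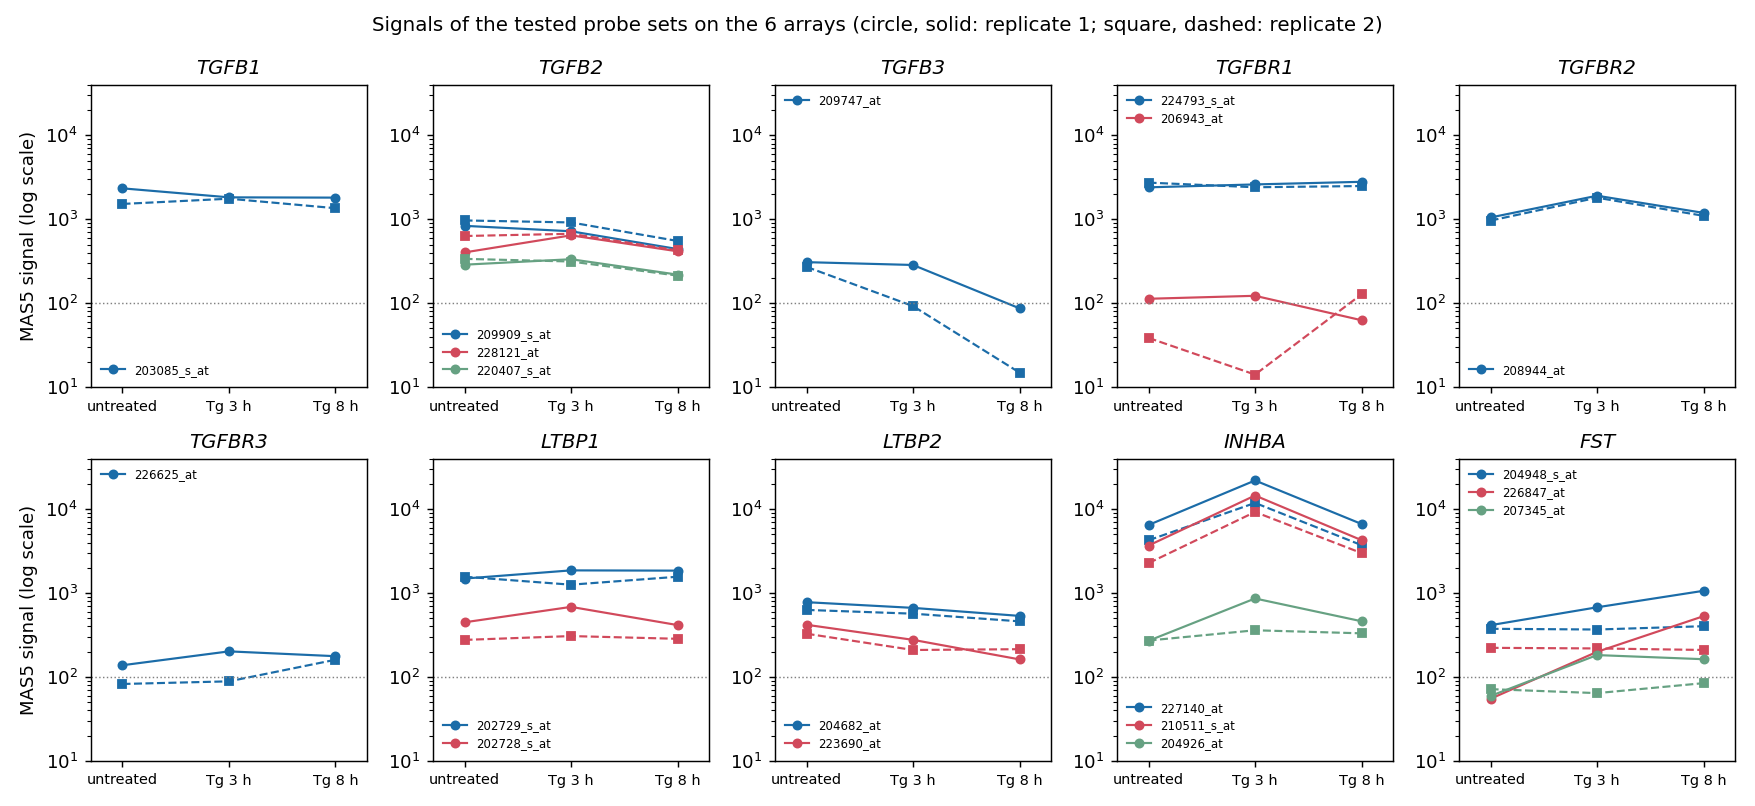
Signals of the 19 tested probe sets (y axis, MAS5 signal on a log scale) in untreated, Tg 3 h and Tg 8 h cells (x axis), with circles and solid lines for replicate 1, squares and dashed lines for replicate 2, and a dotted line at 100. INHBA and TGFBR2 peak at 3 h in both replicates, and TGFB3 declines to 86.9 and 14.9 at 8 h. The 8 h signals of FST differ from the untreated ones by more in replicate 1 than in replicate 2.

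FST encodes follistatin, which binds activin A, and at 8 h its 3 tested probe sets differed from untreated cells by more within replicate 1 than within replicate 2. The probe set 204948_s_at had 414.4 and 375.2 in untreated cells, 676.8 and 367.9 at 3 h, and 1064.6 and 402.8 at 8 h. Within replicate 1 the 8 h difference was 1.36 and within replicate 2 it was 0.10, on the log2 scale. The pooled log2 fold change at 8 h was 0.73 (SE 0.47), with an adjusted p of 0.685 without the block and 0.176 in the blocked fit, and it was 0.03 without Tg 8 h replicate 1.

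The probe set 226847_at had 55.0 and 222.5 in untreated cells, 199.4 and 218.8 at 3 h, and 530.6 and 209.9 at 8 h, which is a log2 difference of 3.27 within replicate 1 and -0.08 within replicate 2 at 8 h. For 207345_at the signals were 59.4 and 71.6, then 182.4 and 64.2, then 162.8 and 84.4, with log2 differences at 8 h of 1.45 within replicate 1 and 0.24 within replicate 2, so that both Tg 8 h arrays lay above both untreated arrays. None of the 3 passed in the fit without the block, the blocked fit or the local pooled error test at either time.

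TGFBR2, the ligand-binding type II receptor of TGF-beta, had its highest signals at 3 h, as INHBA did. Its tested probe set 208944_at had 1052.1 and 965.8 in untreated cells, 1911.5 and 1811.8 at 3 h, and 1193.6 and 1101.2 at 8 h. The 3 h arrays stood above the rest, with little spread within any group. TGFBR2 rose 1.85-fold at 3 h in the blocked fit, by a log2 fold change of 0.88 (blocked SE 0.14, SE 0.20 without the block) with an adjusted p of 0.0209, against 0.398 without the block. The local pooled error test did not call it. Within replicates 1 and 2 the differences were 0.86 and 0.91 on the log2 scale. Between 8 h and 3 h TGFBR2 fell in the blocked fit, with a log2 fold change of -0.70 (blocked SE 0.14) and an adjusted p of 0.0389, against 0.467 without the block. At 8 h its difference from untreated cells was 0.19 (SE 0.20, adjusted p = 0.525 in the blocked fit).

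The type I receptor TGFBR1, which carries the signal into the cell, gave values that overlapped between groups. The signals of 224793_s_at were 2407.0 and 2738.5 in untreated cells, 2606.6 and 2411.8 at 3 h, and 2801.0 and 2494.3 at 8 h, with log2 fold changes of -0.03 (SE 0.19) at 3 h and 0.04 (SE 0.19) at 8 h. A second, dim probe set, 206943_at, passed the signal filter by 3 arrays in 3 different groups (113.0 and 38.6, then 122.6 and 14.1, then 62.7 and 127.7) and shows no order of the groups. The co-receptor TGFBR3 had 138.0 and 82.5 in untreated cells, 201.9 and 88.7 at 3 h, and 176.9 and 160.4 at 8 h on 226625_at. Both Tg 8 h arrays were above both untreated arrays, but the log2 fold change of 0.66 (SE 0.56) had an adjusted p of 0.468 in the blocked fit.

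Of the ligands, TGFB2 was lower at 8 h. Its probe set 209909_s_at had 836.7 and 970.0 in untreated cells, 720.5 and 918.1 at 3 h, and 442.4 and 552.3 at 8 h. Both Tg 8 h arrays lay below the 4 others, whereas the 3 h and untreated arrays overlapped. TGFB2 fell at 8 h in the blocked fit to 0.549 of the untreated level, with a log2 fold change of -0.87 (blocked SE 0.17, SE 0.25 without the block) and an adjusted p of 0.0172, against 0.239 without the block. The local pooled error test did not call it. Within replicates 1 and 2 the 8 h differences were -0.92 and -0.81. A lower signal per culture can stand for fewer cells that express the gene or for less RNA in each cell, and these cannot be told apart in bulk RNA.

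The other tested TGFB2 probe sets did not pass, and did not all share that pattern. For 220407_s_at the signals were 288.0 and 337.9 in untreated cells, 334.5 and 314.2 at 3 h, and 219.2 and 213.3 at 8 h, so that the 8 h arrays again lay below the rest, with a log2 fold change of -0.53 (SE 0.29, adjusted p = 0.294 in the blocked fit). For 228121_at they were 403.2 and 632.6 in untreated cells, 644.5 and 672.7 at 3 h, and 415.7 and 426.7 at 8 h. Here the 3 h arrays lay above both untreated arrays, with a log2 fold change of 0.38 (SE 0.28), and the 8 h arrays fell within the untreated range. Between 8 h and 3 h all 3 probe sets were lower on both arrays, with log2 fold changes of -0.72, -0.58 and -0.64 (209909_s_at, 220407_s_at and 228121_at) and adjusted p of 0.067, 0.322 and 0.192 in the blocked fit.

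TGFB3 had the largest 8 h difference of the 19 tested probe sets, in signals that ended at the dim end of the array. The probe set 209747_at had 308.7 and 271.2 in untreated cells, 285.7 and 92.4 at 3 h, and 86.9 and 14.9 at 8 h. All Tg 8 h values were below all others, and the 3 h arrays straddled the level of 100. The log2 fold change at 8 h was -3.01 (SE 0.89, blocked SE 0.61), with an adjusted p of 0.264 without the block and 0.0186 in the blocked fit. It differed between the replicates (-1.83 and -4.19), was -1.74 without Tg 8 h replicate 2, and was -1.53 with signals under 100 raised to 100, where the blocked fit gave an adjusted p of 0.0579. The fall was thus called from the dim values as deposited and not with the floor. Both untreated values were above 100 and both Tg 8 h values under it. Neither the floor nor leaving out an array could therefore have reversed the direction.

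TGFB1, the most widely expressed of the TGF-beta ligands in human tissues, had 2340.7 and 1525.8 in untreated cells, 1828.4 and 1761.7 at 3 h, and 1814.4 and 1357.4 at 8 h on 203085_s_at. The groups overlapped, and the log2 fold changes were -0.07 (SE 0.26) at 3 h and -0.27 (SE 0.26) at 8 h, with adjusted p of 0.899 and 0.400 in the blocked fit.

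No probe set of the latent binding proteins passed a fit. LTBP1 had 1489.6 and 1567.4 in untreated cells, 1864.6 and 1258.9 at 3 h, and 1851.5 and 1565.7 at 8 h on 202729_s_at, with log2 fold changes of 0.00 (SE 0.24) and 0.16 (SE 0.24). Its dimmer probe set 202728_s_at had 448.3 and 276.6, then 684.6 and 307.3, then 415.7 and 285.1, and followed the replicate number more than the group.

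LTBP2, whose product binds microfibrils but, unlike LTBP1, not latent TGF-beta itself, was lower on both of its probe sets at 8 h without passing a test. On 204682_at it had 779.1 and 629.9 in untreated cells, 666.2 and 568.2 at 3 h, and 534.6 and 460.3 at 8 h, with a log2 fold change of -0.50 at 8 h (SE 0.24, adjusted p = 0.155 in the blocked fit). On 223690_at it had 419.0 and 327.9, then 277.0 and 209.7, then 162.0 and 214.4, with a log2 fold change of -0.62 (SE 0.34) at 3 h and -0.99 (SE 0.34) at 8 h and adjusted p of 0.472 and 0.0960 in the blocked fit. In both probe sets the Tg 8 h arrays lay below both untreated arrays.

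Counts of non-overlapping groups over the 19 probe sets, are given as a description. At 3 h both Tg arrays were above both untreated arrays in 5 of 19 (background 14.0%) and below them in 1 (background 15.9%). At 8 h they were above in 4 (background 14.9%) and below in 5 (background 24.5%), where the share below is near its background. Between 8 h and 3 h they were above in 0 (background 13.4%) and below in 8 of 19 (background 20.9%), namely the 3 of TGFB2, 2 of INHBA and 1 each of TGFB3, TGFBR2 and LTBP2, with a median log2 fold change of -0.371 over the 19 against -0.066 over all probe sets. Several genes have more than 1 probe set among the 19, so these counts and the median are not of genes. The 3 h and 8 h comparisons share the untreated arrays.

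The other 7 probe sets, of TGFB1, TGFB2, TGFB3, TGFBR1, TGFBR2 and TGFBR3, were too dim to be tested, with signals of 3.4 to 125.2. Their fold changes depended on the treatment of dim signals. The TGFB2 probe set 209908_s_at had 46.9 and 4.1 in untreated cells, 70.1 and 45.8 at 3 h, and 55.5 and 28.9 at 8 h. The arithmetic on those signals gives 4.09-fold at 3 h and 2.89-fold at 8 h, opposite in sign at 8 h to the brighter TGFB2 probe sets, and rests on the single untreated value of 4.1, since within replicate 1 the log2 differences were 0.58 and 0.24. With signals under 100 raised to 100 it is 0 at both times. The TGFBR3 probe set 204731_at had 11.9 and 8.9 in untreated cells, 43.4 and 19.0 at 3 h, and 89.8 and 44.3 at 8 h, which is an increasing order in both replicates, entirely under 100. For TGFBR1 the probe set 236561_at had 125.2 and 80.5 in untreated cells, 13.2 and 32.6 at 3 h, and 61.5 and 48.0 at 8 h, where 224793_s_at showed no such difference.

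**Figure D3:**
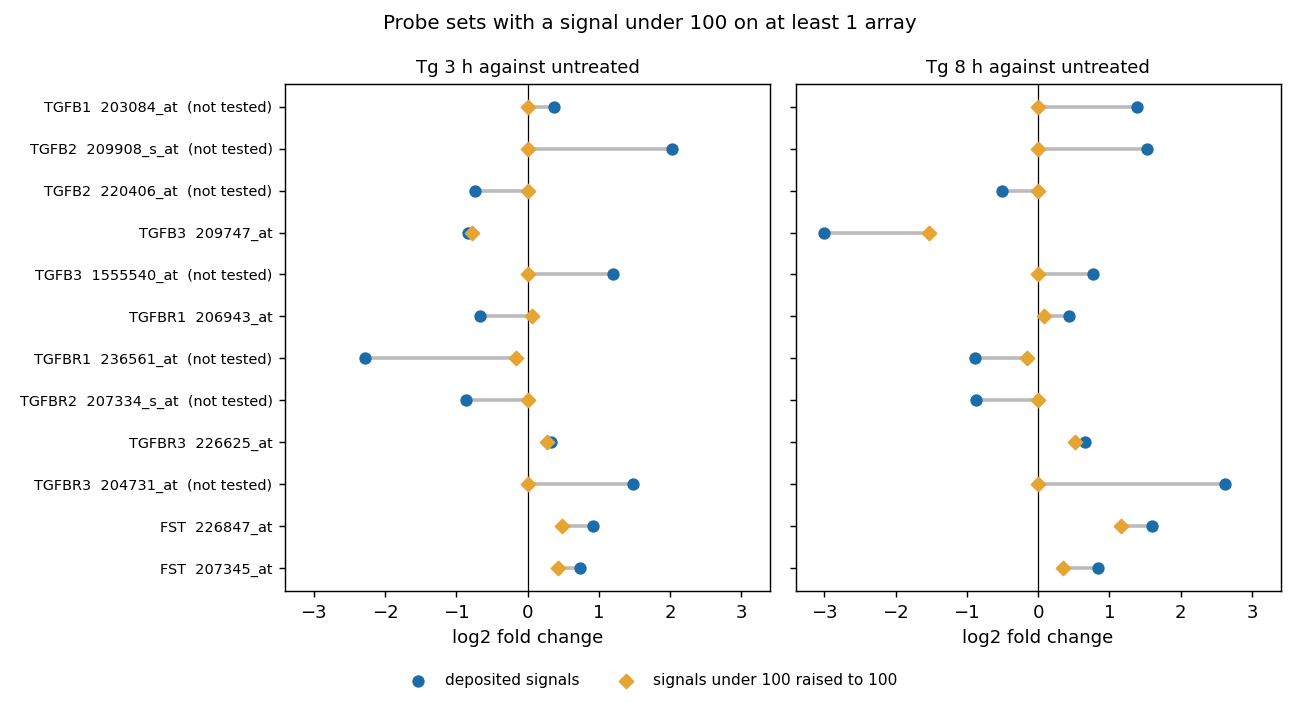
Log2 fold changes at 3 h and at 8 h (x axis) of the 12 probe sets of the 10 genes with a signal under 100 on at least 1 array, from the deposited signals (circles) and with signals under 100 raised to 100 (diamonds). The 209908_s_at probe set of TGFB2 moves to 0 at both times, and TGFB3 209747_at moves to -1.53 at 8 h.

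Other genes of the pathway were read from 5 lists of 74 genes, of which 69 had a probe set of their own and 62 were tested by the brightest one. In the fit without the block, 0 of the 62 rose or fell at either time, where 0.0701% of all genes were called at 3 h and 0.857% at 8 h. Its unadjusted p was below 0.05 for 7 genes at 3 h, all higher, and for 15 lower and 3 higher genes at 8 h. Over all 27616 tested probe sets, in either direction, 1126 at 3 h and 2754 at 8 h had such a p. Those are counts of probe sets, and the like count over all 12839 genes is not given here. The unadjusted counts are therefore not read as a result about the lists. The blocked fit called 5 higher genes at 3 h with 0 lower, while at 8 h it called 14 lower and 2 higher, where 1.25% and 8.54% of all genes were called. The local pooled error test called 1 higher gene at 3 h with 0 lower, while at 8 h it called 2 in each direction. It called 0.296% of all genes at 3 h and 1.26% at 8 h. The median log2 fold change over the 62 was -0.0125 at 3 h, against -0.0230 over all 12839 genes, and -0.332 at 8 h, against -0.0933.

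Among 13 tested genes of latency and activation, 4 fell at 8 h in the blocked fit and 0 moved at 3 h. In that fit 486 of all 12839 genes fell at 8 h. ITGB8, the beta subunit of an integrin that frees TGF-beta from its latent complex, had 965.1 and 1491.7 in untreated cells, 628.5 and 1200.3 at 3 h, and 192.9 and 551.5 at 8 h. Its log2 fold change at 8 h was -1.88 (SE 0.52, blocked SE 0.23), with an adjusted p of 0.0013 in the blocked fit, against 0.225 without the block. In the local pooled error test it was 0.0128. FURIN, the protease that cleaves TGF-beta precursors, fell by 1.06 on the log2 scale (blocked SE 0.18), with an adjusted p of 0.0085 in the blocked fit and 0.107 without the block. The fibrillin gene FBN1, whose product anchors latent binding proteins, fell by 0.80 and the gelatinase gene MMP2 by 0.59, with adjusted p of 0.0238 and 0.0318 in the blocked fit, against 0.265 and 0.554 without the block.

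Activin receptors and co-receptors gave 3 falls among 8 tested genes at 8 h (486 of all 12839 genes) and 0 changes at 3 h in the blocked fit. ENG, the co-receptor endoglin, had 719.5 and 385.2 in untreated cells, 335.6 and 263.5 at 3 h, and 117.0 and 138.1 at 8 h, a log2 fold change of -2.05 (SE 0.38, blocked SE 0.32) at 8 h with an adjusted p of 0.0704 without the block and 0.0051 with it, and of 0.0364 in the local pooled error test. CD109, a co-receptor that dampens TGF-beta signalling, and BAMBI, a decoy receptor without a kinase, fell by 0.68 and 0.67 with adjusted p of 0.0238 and 0.0390 in the blocked fit, against 0.333 and 0.278 without the block. The lists thus hold genes whose products promote and genes whose products restrain the pathway.

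Of 15 SMADs and their regulators 2 fell at 8 h in the blocked fit (486 of all 12839 genes) and 0 at 3 h. So small a count is not read as a result about this list. SMAD3, the receptor-activated SMAD that binds DNA, had 1030 and 874.2 in untreated cells, 1138 and 661.4 at 3 h, and 384.2 and 381.1 at 8 h on its brightest probe set, 218284_at, with a log2 fold change of -1.31 (SE 0.29, blocked SE 0.22) at 8 h and an adjusted p of 0.0068 in the blocked fit, against 0.129 without the block. Another SMAD3 probe set, 205398_s_at, named after its values were seen, had 757 and 702.4 in untreated cells, 714.2 and 769.2 at 3 h, and 199.2 and 258.4 at 8 h. It fell at 8 h in the limma fit without the block too, with a log2 fold change of -1.68 (SE 0.25) and an adjusted p of 0.0361 (0.00156 with the block, 0.0731 in the local pooled error test). The call of the fit without the block was lost with any 1 of the 6 arrays left out, where its adjusted p was 0.0719 to 0.260, while the log2 fold change stayed between -1.87 and -1.50. SKI, a corepressor of SMADs, fell by 0.77 with an adjusted p of 0.0309 in the blocked fit, against 0.315 without the block.

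The 21 tested target genes of TGF-beta, many of which respond to other signals as well, moved in both directions. With the block, 5 were called higher at 3 h, 2 higher at 8 h and 5 lower at 8 h. Over all 12839 genes the same counts were 150, 611 and 486. IL11, an interleukin of the IL-6 family, had 308 and 165 in untreated cells, 3945.5 and 1136.6 at 3 h, and 1439.5 and 424.4 at 8 h. It rose by a log2 fold change of 3.23 at 3 h and 1.79 at 8 h (SE 0.70, blocked SE 0.24), with adjusted p of 0.000205 and 0.0021 under the block, against 0.383 and 0.451 without it. BHLHE40, a transcriptional repressor, rose in the blocked fit by 1.29 at 3 h (adjusted p = 0.0080, against 0.475 without the block) and by 0.79 at 8 h (0.0283, against 0.442). These counts take each gene's brightest probe set. COL1A1, a collagen of the matrix, was not called on that one, 1556499_s_at, whose log2 fold change was -0.31 at 3 h and -0.29 at 8 h. Of its other probe sets, named after their values were seen, 202310_s_at had 18480.1 and 22115 in untreated cells, 11450.6 and 12672 at 3 h, and 11045.5 and 11809.9 at 8 h, and fell in the blocked fit by 0.75 at 3 h (adjusted p = 0.0111, against 0.832 without the block) and by 0.82 at 8 h (0.0021, against 0.208). COL1A1 202311_s_at also fell there, by 1.12 and 1.15 (0.0243 and 0.0063, against 0.378 and 0.103). The remaining tested COL1A1 probe sets, 202312_s_at and 217430_x_at, passed no test at either time. For 202312_s_at the log2 fold changes were 0.69 at 3 h and 0.05 at 8 h (adjusted p of 0.651 and 0.974 in the blocked fit). For 217430_x_at they were -0.03 and -0.84 (0.979 and 0.0860), so the probe sets of COL1A1 did not share one pattern.

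NEDD9, a scaffold protein of focal adhesions, rose at 3 h and fell at 8 h in the blocked fit. It had 1348.7 and 1212.1 in untreated cells, 3231.1 and 2917.5 at 3 h, and 319.0 and 553.1 at 8 h, with log2 fold changes of 1.26 and -1.61 (SE 0.28, blocked SE 0.23) and adjusted p of 0.0380 and 0.0033 under the block, against 0.411 and 0.0602 without it. SNAI2, a repressor of epithelial genes, had 3274.6 and 2196.2 in untreated cells, 7905.1 and 4604.5 at 3 h, and 2385.5 and 2155.6 at 8 h, and rose at 3 h by 1.17 (SE 0.31, blocked SE 0.16, adjusted p = 0.0078 in the blocked fit and 0.618 without the block). Named after their values were seen, CCN2, a secreted matricellular protein, rose by 1.15 at 3 h and SMAD7, the inhibitory SMAD, fell by 1.11 at 8 h, with adjusted p of 0.0078 and 0.0187 in the blocked fit, against 0.358 and 0.264 without the block. The remaining genes that fell at 8 h there were PMEPA1, ADAM19 and COL4A1, with log2 fold changes of -0.67 to -0.77. Their adjusted p were 0.0138, 0.0290 and 0.0079 in the blocked fit, against 0.265, 0.259 and 0.344 without the block.

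None of the 5 tested genes among other activin-type ligands and antagonists passed in the blocked fit. The largest difference was that of INHBE, the activin beta E subunit, named after its values were seen, with 204 and 3479.3 in untreated cells, 738.4 and 4026.8 at 3 h, and 6811.1 and 5421.5 at 8 h. On the log2 scale the untreated arrays differed more from each other than the untreated replicate 2 array did from either Tg 8 h array. DDIT3 was likewise higher on the untreated replicate 2 array than on the replicate 1 array, and its part in the INHBE values was not tested. Its log2 fold change of 2.85 at 8 h (SE 1.21) had an adjusted p of 0.495 without the block and 0.0524 with it, and of 1.9e-09 in the local pooled error test.

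**Figure D4:**
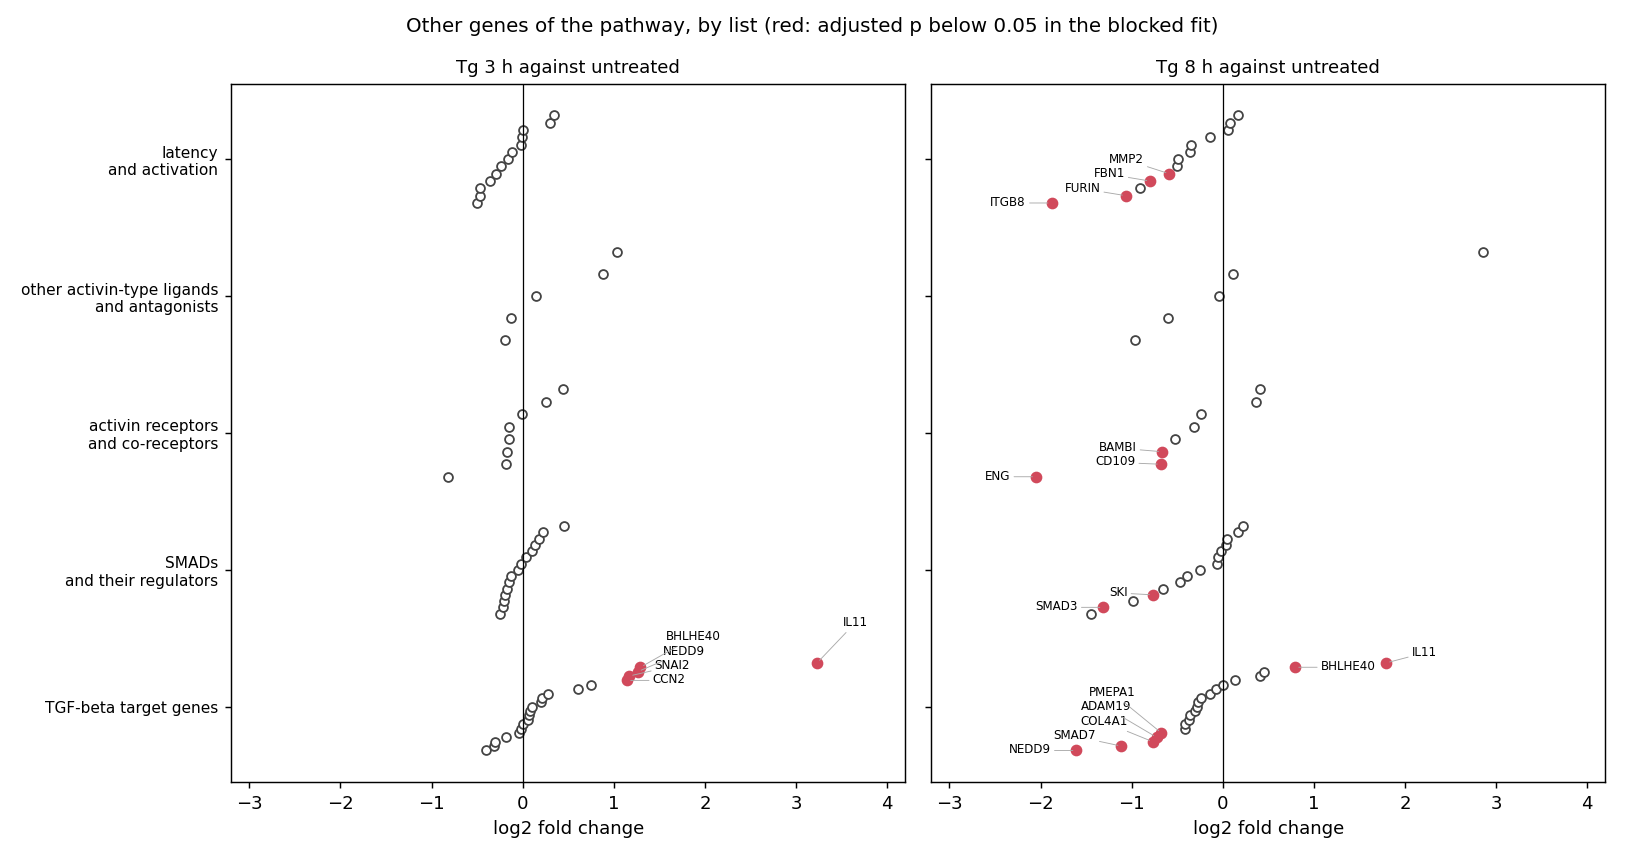
Log2 fold changes at 3 h and at 8 h (x axis) of the 62 tested genes of the 5 pathway lists (rows), with red points and names for an adjusted p below 0.05 in the blocked fit. At 3 h the 5 red points are target genes to the right of 0, and at 8 h 14 of the 16 red points lie to the left of 0.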

How the data were processed

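RNA of Daoy cells had been hybridized to 6 arrays, 2 per group. The deposited values were linear MAS5 intensities of each probe set, which the authors had scaled to a trimmed mean of 500 on every array (MAS5 per the submitters' processing notes). No detection calls entered the analysis. One gene symbol was annotated for 41097 of the 54675 probe sets, and the 1801 with several were not used.

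Signals were log2-transformed and fitted with limma 3.58.1 in R 4.3.3 (lmFit on all 6 arrays by group, eBayes with an intensity trend, two-sided, Benjamini-Hochberg over 27616 probe sets that reached 100 on 2 or more arrays, threshold 0.05). The study's methods describe independent experiments, and arrays of one replicate number deviated together from their group means (r = 0.259 to 0.323 for the 3 pairs of groups), so the fit with the number as a block is given beside it. Which cultures share a number is not given in the sources used here, and p-values measure only the spread between these arrays. A gene was read from its brightest probe set. Motif searches used Python 3.11.15 with pandas 2.3.3, and figures matplotlib 3.10.9.

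The genes and lists were chosen with earlier results of these data known. Named were all 10 genes with every probe set and, from each pathway list, up to 4 called genes with the largest change and a group mean of at least 200. Alternatives were the block, the local pooled error test, no intensity trend, quantile normalization, median centring, no filter, a filter at 200, a floor of 100, 50 added to each signal, a fit of only the 4 arrays compared, each array left out, and the mean of a gene's probe sets. The block combined with the floor or with quantile normalization was added after seeing the data. The fits were also run on data simulated with independent normal errors, whose outcome is not given here and is not used to support any call. The arrays' number limits the precision. Genome positions of probe sets are not given, as the files name no build.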

Additional observations from a re-analysis of the deposited data

Results flagged for a closer look

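In the pathway lists, NEDD9, KLF10, TSC22D1 and TRIM33 had both Tg 3 h arrays above and both Tg 8 h arrays below the untreated arrays, so that the arrays of the 2 times lay on opposite sides of the untreated arrays. Over all tested probe sets, 14.0% had both Tg 3 h arrays above the untreated arrays, and 24.5% had both Tg 8 h arrays below them. The share with both together was not counted, so the crossing is not read as particular to the pathway. Against untreated cells only NEDD9 passed on both sides, in the blocked fit (adjusted p = 0.0380 at 3 h and 0.0033 at 8 h), whereas the blocked adjusted p at 3 h and 8 h were 0.0736 and 0.171 for KLF10, 0.114 and 0.192 for TSC22D1, and 0.660 and 0.149 for TRIM33. The log2 difference of Tg 8 h against Tg 3 h was -2.87 for NEDD9 (SE 0.28, adjusted p = 0.216 in limma without the block and 0.0014 in the blocked fit), -1.173 for KLF10 (adjusted p = 0.407 and 0.0088), -0.9649 for TSC22D1 (0.428 and 0.0127) and -0.5671 for TRIM33 (0.598 and 0.0748). KLF10, a zinc finger factor induced early by TGF-beta, had 1948.7 and 1784.6 in untreated cells, 3653.4 and 2704.8 at 3 h, and 1773.2 and 1096.8 at 8 h. TSC22D1, also named for its response to TGF-beta, had 3701.4 and 2971.0 in untreated cells, 6135.3 and 4153.3 at 3 h, and 2648.1 and 2525.6 at 8 h. TRIM33, a ubiquitin ligase that acts on SMAD4, had 1564.6 and 1575.4, then 1711.8 and 1844.9, then 1195.1 and 1203.9. None of the 10 TGF-beta and activin genes showed this crossing, and with 2 arrays per group no array could be tested as an outlier.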

How the results depend on the processing

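The 0 calls among the 19 tested probe sets stayed 0 in each comparison without the intensity trend, after quantile normalization or median centring, without the filter or with one at 200, with the floor or the pseudocount, with only the 4 arrays compared, and with any array left out. The replicate block gave 3 calls at 3 h, 2 at 8 h and 3 between the times, and also 3, 2 and 3 with quantile normalization, but 3, 1 and 3 with signals under 100 raised to 100, where TGFB3 was lost. The local pooled error test gave 2 at 3 h and 2 between the times. Of the other pathway genes, where 0 were called at either time, the block called 5 at 3 h and 16 at 8 h (4 and 16 with the floor, 5 and 15 with quantile normalization), the local pooled error test 1 and 4, and no filter 1 at 8 h, NEDD9. With an array left out the count ranged over 0 to 0 at 3 h and 0 to 1 at 8 h, the 1 being INHBE without untreated replicate 2. Of 84 log2 fold changes of single probe sets, 27 changed sign under some alternative, all in comparisons in which that probe set passed no fit, and most were small. Leaving out untreated replicate 1 or replicate 2, in that order, gave at 3 h 0.23 and -0.38 for TGFB1 203085_s_at, -0.060 and 0.17 for TGFB2 220407_s_at, -0.13 and 0.059 for TGFBR1 224793_s_at, and -0.091 and 1.93 for FST 226847_at. At 8 h it gave 0.041 and -0.58 for TGFB1 203085_s_at, -0.59 and 0.063 for TGFB2 228121_at, -0.051 and 0.14 for TGFBR1 224793_s_at, 1.21 and -0.34 for TGFBR1 206943_at, 0.32 and -0.38 for LTBP1 202728_s_at, and 0.65 and -0.042 for INHBA 210511_s_at. Leaving out Tg 3 h replicate 1 or 2 gave at 3 h 0.027 and -0.32 for TGFB2 209909_s_at, -2.23 and 0.89 for TGFBR1 206943_at, -0.27 and 0.92 for TGFBR3, -0.28 and 0.29 for LTBP1 202729_s_at, -0.20 and 0.96 for LTBP1 202728_s_at, -0.10 and 0.78 for FST 204948_s_at, and -0.023 and 1.48 for FST 207345_at. Between the times it gave 2.67 and -0.45 for TGFBR1 206943_at, 0.93 and -0.26 for TGFBR3, 0.44 and -0.13 for LTBP1 202729_s_at, 0.16 and -0.99 for LTBP1 202728_s_at, 0.12 and -1.14 for INHBA 204926_at, and 0.87 and -0.64 for FST 207345_at. Leaving out Tg 8 h replicate 1 or 2 gave -0.50 and 0.34 for INHBA 227140_at at 8 h, and between the times -0.40 and 0.016 for TGFB1, -0.0075 and 0.16 for TGFBR1 224793_s_at, and -0.31 and 1.09 for FST 204948_s_at. With signals under 100 raised to 100, with or without the block, TGFBR1 206943_at was 0.059 at 3 h and FST 207345_at -0.082 between the times. Median centring turned LTBP1 202729_s_at to -0.013 at 3 h, and at 8 h LTBP1 202728_s_at to 0.061 and INHBA 227140_at to 0.017. Quantile normalization gave 0.063 for LTBP1 202728_s_at at 8 h, with or without the block. The mean over a gene's probe sets was 0.097 for TGFB2 at 3 h, 0.25 for INHBA at 8 h and -0.13 for LTBP1 between the times. With 2 arrays per group, signals under 100 set the limit for TGFB3 and the dim probe sets. The cause of each of these shifts was not tested.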
